A study of Mus musculus with 3 samples.

Results

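The data described here are the chromatin regions that were called accessible by ATAC-seq in both SOX2-ON and SOX2-OFF cells, and how their rank and width differed between these states. Peaks of both lists were merged, and merged regions of chromosomes 1 to 19 to which both lists contributed were kept. This gave 81045 shared regions of 173570 merged regions, or 46.7%, while merging all 3 lists of the series gave 219473 regions. Since the regions were chosen by the peak calls of these same lists, the ranks and widths below are descriptions and carry no test. Each state was represented by 1 sample, so no difference between them can be set against replicate error.

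The study followed mouse embryonic stem (ES) cells of the HM1 line (strain 129, named HM1 TetON in the study) that were differentiated for 72 h, to day 3. All cells received bFGF at 10 ng per ml and LGK974, an inhibitor of WNT secretion, at 5 µM throughout, and CHIR99021, which activates WNT signalling by inhibiting GSK3, from day 2. SOX2-ON and SOX2-OFF cells were of a Sox2-/- line in which a doxycycline-inducible Sox2 transgene supplies the protein. Doxycycline (1 µg per ml) was kept during differentiation in SOX2-ON and withdrawn in SOX2-OFF, whereas caudal epiblast-like cells (CEpiLCs) came from the parental HM1 TetON line, which is wild type for Sox2, and received none. The inducible line was selected as a clone, its transgene sits at the Hprt locus on chromosome X and is driven by a doxycycline-dependent activator, and neither of these differs between SOX2-ON and SOX2-OFF. Each sample comprised 50000 cells, with at most 12 PCR cycles.

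SOX2 is an HMG-box transcription factor that keeps ES cells pluripotent, where it often binds next to the POU factor POU5F1 (OCT4), and it is later required in neural progenitors. WNT signalling stabilises β-catenin, which acts through the TCF/LEF factors, HMG-box proteins whose recognition letters partly resemble those of SOX factors. In ATAC-seq a transposase inserts sequencing adapters into DNA that is not wrapped in nucleosomes, so a peak marks accessible chromatin, often a promoter or another cis-regulatory element (CRE). Accessibility is not occupancy by a given factor and not expression of the nearest gene.

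The sequences below are the central 200 bases of regions to which the results return, printed 5′ to 3′ on the plus strand of mm10 (GRCm38), with motif matches in capitals. The first 5 regions ranked far higher in SOX2-ON and hold a SOX match or, near Anxa1, the composite OCT-SOX motif. They are shown because of these matches. Among the 10 leading regions outside promoters each way, such a match was in 3 shifted to SOX2-ON and 2 shifted to SOX2-OFF. A match on the minus strand appears as its reverse complement. The letters searched for SOX were CCATTGT and CCTTTGT, and those for GATA, also in capitals near Klf4, were AGATAAG and TGATAAG. The OCT-SOX motif was allowed 2 mismatches, and the match near Anxa1 has 2. The letters of this motif overlap those of SOX and of the POU octamer.
Anxa1, intergenic, chr19:20426738-20426937: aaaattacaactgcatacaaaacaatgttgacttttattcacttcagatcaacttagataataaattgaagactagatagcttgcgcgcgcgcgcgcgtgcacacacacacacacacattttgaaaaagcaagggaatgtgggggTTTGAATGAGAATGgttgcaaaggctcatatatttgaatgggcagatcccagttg
Timp4, intronic, chr6:115257772-115257971: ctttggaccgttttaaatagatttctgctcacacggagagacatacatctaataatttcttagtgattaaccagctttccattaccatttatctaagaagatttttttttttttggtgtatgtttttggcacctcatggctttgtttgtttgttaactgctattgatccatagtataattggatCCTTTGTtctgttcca
Mmd2, intronic, chr5:142589500-142589699: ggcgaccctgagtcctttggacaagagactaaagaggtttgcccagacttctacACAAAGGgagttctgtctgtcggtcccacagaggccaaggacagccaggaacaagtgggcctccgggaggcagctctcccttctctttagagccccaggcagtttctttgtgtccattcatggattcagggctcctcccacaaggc
Klf4, intergenic, chr4:55464357-55464556: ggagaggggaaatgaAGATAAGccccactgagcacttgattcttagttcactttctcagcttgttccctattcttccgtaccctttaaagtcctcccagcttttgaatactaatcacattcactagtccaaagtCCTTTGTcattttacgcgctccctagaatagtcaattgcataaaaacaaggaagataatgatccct
Mybl2, intergenic, chr2:163051991-163052190: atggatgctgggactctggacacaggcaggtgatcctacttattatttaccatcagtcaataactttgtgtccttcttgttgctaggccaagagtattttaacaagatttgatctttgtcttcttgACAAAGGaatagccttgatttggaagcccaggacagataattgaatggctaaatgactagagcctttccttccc

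The next 3 regions ranked far higher in SOX2-OFF and hold the TCF/LEF letters CTTTGAT, and the region near Inpp5a also holds a SOX match and a CTCF match (1 mismatch allowed). The region near Inpp5a had one of the largest shifts among strong regions, and those near Znrf3 and Ccnd1, which were not strong in either list, are shown as regions of WNT response genes. TCF/LEF and SOX letters share the stretch CTTTG but are not the same word.
Inpp5a, intronic, chr7:139415783-139415982: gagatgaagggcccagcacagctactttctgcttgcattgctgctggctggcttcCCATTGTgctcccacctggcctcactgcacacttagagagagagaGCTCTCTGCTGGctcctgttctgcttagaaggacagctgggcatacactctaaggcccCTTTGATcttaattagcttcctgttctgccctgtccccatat
Znrf3, intronic, chr11:5392514-5392713: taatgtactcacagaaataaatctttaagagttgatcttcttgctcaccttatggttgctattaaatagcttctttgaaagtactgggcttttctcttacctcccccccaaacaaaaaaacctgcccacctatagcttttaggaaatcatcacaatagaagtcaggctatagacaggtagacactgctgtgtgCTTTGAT
Ccnd1, intergenic, chr7:144971642-144971841: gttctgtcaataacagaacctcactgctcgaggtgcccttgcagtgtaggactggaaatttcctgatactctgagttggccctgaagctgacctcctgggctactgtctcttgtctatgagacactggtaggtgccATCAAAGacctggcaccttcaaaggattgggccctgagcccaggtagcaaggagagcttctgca
Among all 64972 shared regions outside promoters, 9.07% held a SOX match in the central 200 bases, 0.940% an OCT-SOX match, 4.88% a GATA match, 3.51% a TCF/LEF match and 9.28% a CTCF match. A match only says that these letters are present.

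The lists were similar in size, with 128065 autosomal peaks for SOX2-ON, 130051 for SOX2-OFF and 129279 for CEpiLC. Their median widths were 621, 740 and 525 bases, in that order. Read totals were not used here, and since fold enrichment and −log10 p grow with depth, each peak was ranked by −log10 p within its own list and given a percentile, where 100 is the strongest. At rank 20000 the −log10 p was 25.2 for SOX2-ON, 20.2 for SOX2-OFF and 10.3 for CEpiLC. Peaks up to that rank are called strong. Chromosomes 6 and 8 held 27.6% of SOX2-ON peaks and 27.7% of SOX2-OFF peaks but 9.47% of CEpiLC peaks, and values without them are given where they differ.

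Shared regions were the stronger part of both lists. The 44051 SOX2-ON peaks outside them had a median percentile of 30.6, against 61.1 for those inside, and the 48474 SOX2-OFF peaks outside had 27.7 against 66.04. In 77718 regions (95.9%) each list contributed 1 peak, and in 8 regions the strongest peaks of the lists did not overlap. A region that is absent from one list was not detectable at that depth, which is not the same as closed.

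The ranks of shared regions in SOX2-ON and SOX2-OFF followed each other with a wide spread. The shift, defined as the SOX2-ON percentile minus the SOX2-OFF percentile, had a median of −1.66 points, a 5th percentile of −36.1 and a 95th percentile of 31.7, and 37.8% of regions lay within 5 points of no shift. The median absolute shift was 8.48 points. The Spearman rank correlation between the percentiles was 0.798 over the 81045 regions, which share the libraries and are not replicates. Regions shifted by at least 25 points are called shifted. By this rule 6068 regions (7.49%) were shifted to SOX2-ON and 8778 (10.8%) to SOX2-OFF. A stricter 40 points left 2397 and 3018.

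**Figure D1:**
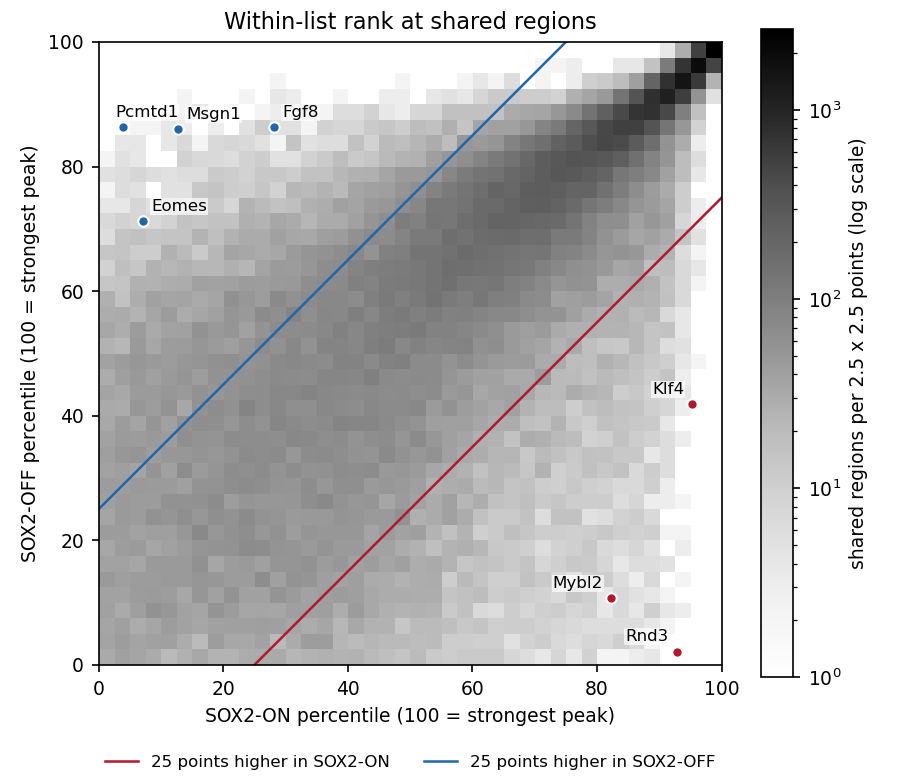
Number of shared regions by their percentile in SOX2-ON (x axis) and SOX2-OFF (y axis), in bins of 2.5 points, with lines at a shift of 25 points and named regions as dots. Of the 81045 regions, 66199 lie between the lines, densest where both percentiles are high, with Rnd3, Mybl2 and Klf4 below it and Pcmtd1, Msgn1, Fgf8 and Eomes above it.

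The direction of the split depended on the ranking. SOX2-ON took 40.9% of the shifted regions when ranks were taken over all peaks of a list, but 53.6% when regions were ranked among shared regions only, with 6740 shifted to SOX2-ON and 5836 to SOX2-OFF. Without chromosomes 6 and 8, 3860 regions were shifted to SOX2-ON and 5955 to SOX2-OFF. The excess of SOX2-OFF shifts thus depended on how ranks were taken, and the text below turns on which regions shifted. At the threshold itself, the last region counted for SOX2-ON had percentiles of 60.2 in SOX2-ON and 35.2 in SOX2-OFF, and the next one not counted had 78.6 and 53.6. For SOX2-OFF the last counted had 44.3 in SOX2-ON and 69.3 in SOX2-OFF, and the next 37.8 and 62.8.

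Shifts were concentrated in regions of low and middle rank. When regions were sorted by their mean percentile into 10 equal bins, the share shifted was highest in bin 2, where 16.3% went to SOX2-ON and 26.5% to SOX2-OFF. It was 3.69% and 2.31% in bin 7, 0.555% and 0.197% in bin 8, and 0 in bins 9 and 10. Near the top of the scale a shift of this size is hardly possible or impossible by arithmetic. Of the 22532 regions that were strong in either list, 16066 were strong in both, 895 were shifted to SOX2-ON and strong in SOX2-ON, and 453 were shifted to SOX2-OFF and strong in SOX2-OFF. The last number moved by over 1.5 times under some alternatives. It was 720 without chromosomes 6 and 8, 597 when peaks were ranked by fold enrichment and 602 when they were ranked among shared regions, 869 when only peaks with a −log10 q of at least 5 were used and 191 at a threshold of 40 points. The count for SOX2-ON was 1120, 999, 1334, 1075 and 479 under the same settings.

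Promoters shifted less often than other regions, but they were concentrated in the bins of mean percentile where no region shifted. A promoter here is a region within 1 kb of an annotated start of a protein-coding gene, and 16073 shared regions at 14084 genes met this. Their median absolute shift was 1.34 points, and 80.8% lay within 5 points. Among them 195 (1.21%) shifted to SOX2-ON and 411 (2.56%) to SOX2-OFF. Outside promoters the median absolute shift of the 64972 regions was 11.3 points, with 9.04% shifted to SOX2-ON and 12.9% to SOX2-OFF. Strength moved with this difference, since promoters made up 55.0% of bin 9 and 90.5% of bin 10, but 3.78% of bin 1. In bins 9 and 10, 0 regions of any kind were shifted, and their median absolute shifts were 1.84 and 0.648 points. A shift of the size counted is hardly possible or impossible there by arithmetic. The comparison over all bins therefore cannot separate promoters from strength. Promoters and other regions were not compared within bins, so the part of strength was not tested.

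Shifted regions accordingly lay mostly in introns and between genes, and the limit set by strength holds for these shares too. Promoters were 19.8% of all shared regions but 3.21% (95% Wilson interval 2.80 to 3.69) of those shifted to SOX2-ON and 4.68% (4.26 to 5.14) of those shifted to SOX2-OFF. These intervals, like all below, cover counting error only, because neighbouring regions share a library and PCR copies do not count molecules. Introns held 42.7% of the regions shifted to SOX2-ON, 41.7% of those shifted to SOX2-OFF and 33.3% of all. Among regions outside promoters these were 2593 of 5873, 3661 of 8367 and 27004 of 64972, so the shares lay closer together there. Outside promoters the median distance to a coding start was 33.1 kb for SOX2-ON, 27.2 kb for SOX2-OFF and 26.1 kb for all. The median GC content of their central 200 bases was 48.5%, 50% and 50.5%.

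Chromosomes 6 and 8 contributed 32.0% of the regions shifted to SOX2-ON and 32.8% of those shifted to SOX2-OFF, against 27.2% of all shared regions. On each of the other 17 chromosomes, between 5.62% and 8.64% of regions shifted to SOX2-ON and between 8.67% and 11.4% to SOX2-OFF. Shifts to both states were thus present on every autosome.

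Peaks were wider in SOX2-OFF over most shared regions, and width followed rank. The median region had 861 bases covered in SOX2-ON and 1007 in SOX2-OFF, the median ratio of SOX2-ON to SOX2-OFF was 0.915, and 63.0% of regions were wider in SOX2-OFF. Relative to that median, 6576 regions (8.11%) were at least 2 times wider in SOX2-ON and 11342 (14%) at least 2 times wider in SOX2-OFF. The median ratio was 0.520 in regions shifted to SOX2-OFF by 40 points or more, 0.949 within 5 points of no shift and 1.62 in regions shifted to SOX2-ON by 40 points or more. Of the regions shifted to SOX2-ON, 31.6% were at least 2 times wider in SOX2-ON and 8.39% were as much wider in SOX2-OFF. For those shifted to SOX2-OFF, 35.6% were wider in SOX2-OFF and 4.56% in SOX2-ON. Rank and width come from the same calls, and a peak that barely passes the threshold is narrow, so width is no second line of evidence.

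**Figure D2:**
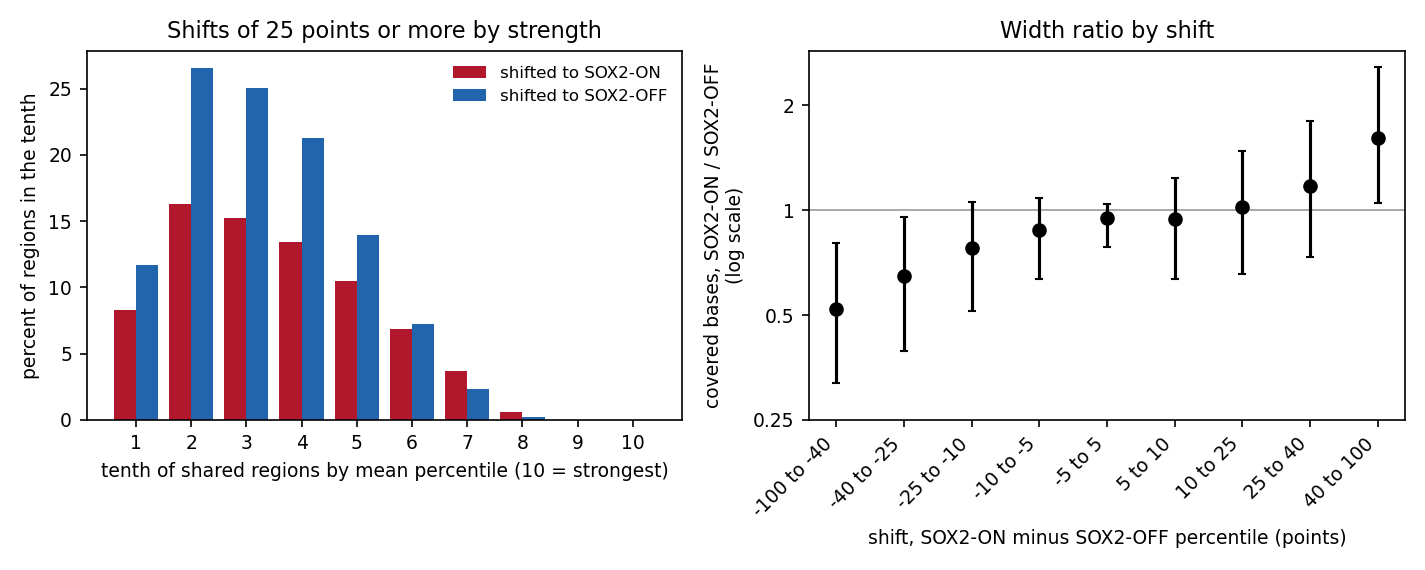
Left, percent of shared regions shifted by at least 25 points to each state, in 10 equal bins of the mean percentile. Right, median ratio of SOX2-ON to SOX2-OFF covered bases by shift (log axis, bars from the lower to the upper quartile), which goes from 0.520 at the SOX2-OFF end to 1.62 at the SOX2-ON end.

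Width and rank also parted in some regions that were strong in both lists. A region between genes 279010 bases upstream of Sox9, an HMG-box gene of endoderm, cartilage and neural crest, covered 662 bases in SOX2-ON and 3425 in SOX2-OFF, although its percentiles were 93.6 and 86.9, and it stood at 98.0 in CEpiLC. A region 6556 bases from Pou4f1, a POU factor of sensory neurons, covered 659 and 3185 bases at percentiles of 90.9 and 85.2. In the other direction, a region 3775 bases from the metallothionein gene Mt1 covered 1636 bases in SOX2-ON and 501 in SOX2-OFF at percentiles of 88.9 and 86.6. These belong to the 5 regions with the largest width change each way. In 4 of these 10, near Gm3005, Sik3, C6 and Tmem196, between 96.5% and 100% of the central 200 bases were annotated repeat, where reads are difficult to place.

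Among regions strong in either list, those with the largest shifts to SOX2-ON were barely called in SOX2-OFF. This follows from the choice, since shifts this large require a low SOX2-OFF percentile. The 10 leading ones outside promoters, taken within 100 kb of a coding start and 1 per gene, shifted by 84.1 to 90.7 points. Their fold enrichment was between 3.01 and 5.16 in SOX2-ON and between 1.42 and 1.47 in SOX2-OFF, and they covered 845 to 1503 bases against 204 to 899. CEpiLC, which was used neither to choose nor to rank these regions, had a peak at 2 of the 10.

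The region ranked first lay between genes 75928 bases from Rnd3, which encodes a small GTP-binding protein, at chr2:51072283-51073182. Its percentiles were 92.8 in SOX2-ON and 2.10 in SOX2-OFF, it covered 900 against 233 bases, and it had no CEpiLC peak. Its central bases held a GATA match. The region upstream of Anxa1, the annexin A1 gene, whose OCT-SOX match is shown above, had percentiles of 90.5 and 0.449, and it too had no CEpiLC peak. Near Timp4, an inhibitor of metalloproteinases, they were 87.5 and 0.515, again with no CEpiLC peak. The region near Mmd2 differed in the third list: its percentiles were 86.4 in SOX2-ON and 0.704 in SOX2-OFF, but 74.2 in CEpiLC. The other leading regions were near Cdh20 (a cadherin), Nav1, Nrip3, Dusp4 (a phosphatase of MAP kinases), Gstm2 and Il7 (a cytokine), of which the one near Nrip3 stood at 43.8 in CEpiLC and the rest had no peak there.

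At promoters strong in either list the largest shift to SOX2-ON was that of Ppef2, a protein phosphatase gene, with percentiles of 90.1 in SOX2-ON and 5.10 in SOX2-OFF, with 58.0 in CEpiLC. Mkln1, Frmd4a, Evl and Zfp532 followed with shifts of 75.6, 64.4, 58.6 and 56.4 points. CEpiLC had a peak at 3 of these 5 promoters, at percentiles of 38.6 to 58.0. The Ppef2 and Mkln1 peaks were broader in SOX2-OFF (1798 against 1304 bases and 1545 against 1140) in spite of their lower rank there.

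The regions leading in shifts to SOX2-OFF, chosen in the same way, also had a CEpiLC peak, as did 95.8% of all regions strong in either list. The 10 leading ones outside promoters shifted by 76.7 to 82.3 points. The largest shift to SOX2-OFF over all shared regions, −87.1 points, lay beyond 100 kb of any coding start and is not among them. Fold enrichment of the 10 was 1.43 to 1.54 in SOX2-ON and 2.28 to 3.94 in SOX2-OFF. CEpiLC had a peak at all 10, at percentiles of 49.4 to 92.8. The first, 66815 bases upstream of Pcmtd1 at chr1:7019920-7022105, had percentiles of 3.95 in SOX2-ON and 86.3 in SOX2-OFF, with 85.1 in CEpiLC, and covered 212 against 2186 bases. Here and below, percentiles given as a series of 3 are in the order SOX2-ON, SOX2-OFF and CEpiLC. The intronic region of Inpp5a, an inositol phosphatase gene, whose SOX, TCF/LEF and CTCF matches are shown above, had 5.26, 84.7 and 76.5. A region near Cabp1, which encodes a calcium-binding protein, had 3.76, 84.8 and 79.2. The others lay near Rxfp2, Ppp1r12a, Fbln2, Zc2hc1a, Dennd3, Reg3b and AC117239.2. Between 88.5% and 94% of the central bases were repeat near Zc2hc1a, Reg3b and AC117239.2.

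The promoter of Msgn1 was among the 5 with the largest shifts to SOX2-OFF of those strong in either list. Msgn1 encodes mesogenin, a bHLH factor of presomitic mesoderm and a target of WNT and TBX6, and its region chr12:11208225-11210058 had percentiles of 12.7 in SOX2-ON and 86.0 in SOX2-OFF, with 82.4 in CEpiLC. It covered 306 bases in SOX2-ON and 1834 in SOX2-OFF. Agbl1, Jakmip3, Rassf9 and Dop1b were the other 4, with shifts of −80.9, −76.5, −71.2 and −56.4 points. All 5 had a CEpiLC peak, at percentiles of 77.7 to 88.7.

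**Figure D3:**
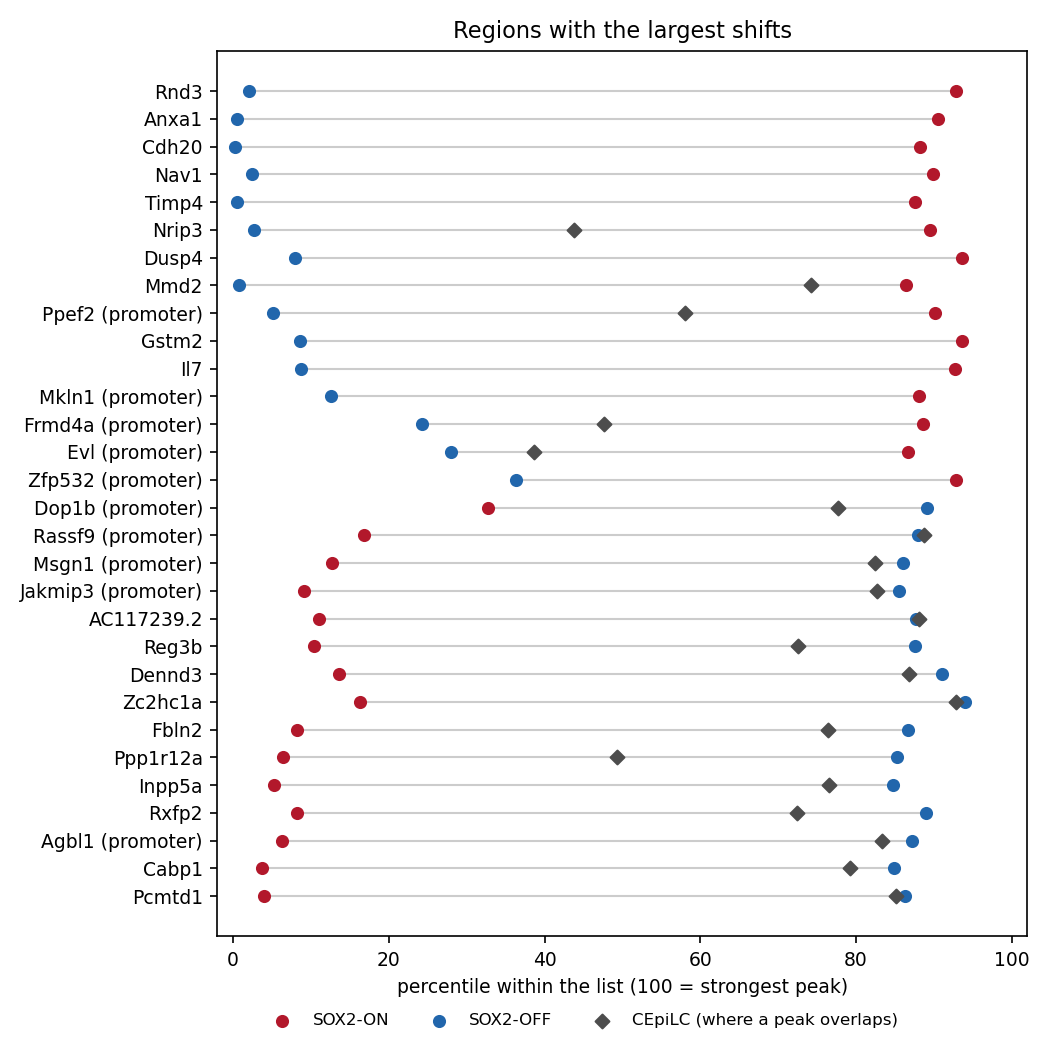
Percentile in SOX2-ON, SOX2-OFF and CEpiLC of the 30 regions with the largest shifts among regions strong in either list, 10 outside promoters and 5 promoters each way. CEpiLC had a peak at 15 of the 15 shifted to SOX2-OFF and at 5 of the 15 shifted to SOX2-ON.

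The weak side of these pairs lay close to the calling limit. In the 10 leading SOX2-ON regions the SOX2-OFF peak had a −log10 p of 2.55 to 2.89, and in the 10 leading SOX2-OFF regions the SOX2-ON peak had 2.80 to 3.10. When only peaks with a −log10 q of at least 2 were kept, 141 of 189 shifted regions (these 30 and those of the gene lists below) no longer had a peak in both lists, and the remaining 48 stayed shifted in the same direction.

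The difference in CEpiLC held over all shifted regions and was larger in strong ones. CEpiLC had a peak at 71.9% of all shared regions, at 44.7% (43.4 to 45.9) of those shifted to SOX2-ON and at 65.3% (64.3 to 66.2) of those shifted to SOX2-OFF. Among strong regions, the shares were 52.6% (49.4 to 55.9, 471 of 895) for SOX2-ON and 97.8% (96.0 to 98.8, 443 of 453) for SOX2-OFF, against 95.8% for all regions that were strong in either list. Promoters were 56.4% of all strong regions but 2.23% and 4.86% of the strong regions shifted to SOX2-ON and SOX2-OFF. The values for all strong regions are thus largely those of promoters. Where CEpiLC had a peak, its median percentile was 50.7 at the strong SOX2-ON regions and 83.6 at the strong SOX2-OFF regions. The CEpiLC percentile was nearer that of SOX2-OFF than that of SOX2-ON in 79.0% of the former and in 87.6% of the latter, against 68.9% of all strong regions. Over all regions shifted to SOX2-ON this share was 53.7%, and over those shifted to SOX2-OFF 73.0%, against 62.8% of all shared regions. The lists of both inducible states were far richer in chromosomes 6 and 8 (27.6% and 27.7%) than the CEpiLC list (9.47%). Without these chromosomes and chromosome 11, CEpiLC had a peak at 55.1% of all regions shifted to SOX2-ON. For those shifted to SOX2-OFF the share was 82.9%. The share over all shared regions was not computed under this omission, so these values have no background beside them.

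Sequence content differed between the directions of shift, and SOX letters were the most frequent difference on the SOX2-ON side. Outside promoters a SOX match was present in 13.5% (12.6 to 14.4) of regions shifted to SOX2-ON, 8.03% (7.47 to 8.63) of those shifted to SOX2-OFF and 9.07% of all. In strong regions the shares were 21.9% (19.3 to 24.8, 192 of 875), 9.28% (6.89 to 12.4, 40 of 431) and 11.04%. The share rose along the shift, from 7.57% at −25 to −10 points to 8.48% within 10 points, 11.6% at 10 to 25, 12.4% at 25 to 40 and 15.1% beyond 40. Below −25 points it was 8.003% and 8.09%, so the gradient was on the SOX2-ON side.

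The composite OCT-SOX motif, which POU5F1 and SOX2 bind together, went the same way at a lower frequency, with 1.62% (1.33 to 1.97) at regions shifted to SOX2-ON, 0.598% (0.454 to 0.787) at those shifted to SOX2-OFF and 0.940% at all. In strong regions it was present in 27 of 875 and 4 of 431. The POU octamer ATGCAAAT alone did not separate the directions, with 1.52% and 1.51%. GATA letters were in 6.95% and 4.69%, and in strong regions in 11.7% and 3.94%. GATA letters are rich in A and T, whereas SOX letters hold only slightly more A and T than G and C. The strong regions shifted to SOX2-ON had a median GC content of 46% against 49% for SOX2-OFF. In those shifted to SOX2-ON it was 46.5% with a SOX match and 46% without. The part of base composition was not tested.

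TCF/LEF letters stood out in strong regions shifted to SOX2-OFF. They were in 73 of 431 such regions, or 16.9% (13.7 to 20.8), against 4.11% (2.99 to 5.64) of strong regions shifted to SOX2-ON and 4.83% of all strong regions outside promoters. Over all shifted regions the difference was small, with 4.59% for SOX2-OFF and 3.98% for SOX2-ON. The 73 regions with the letters had a median of 29.5% repeat in their central bases, against 12% in the 358 without. In regions with at most 50% repeat, a limit chosen after the data were seen, the share was 15.5% (52 of 336) for SOX2-OFF and 3.74% for SOX2-ON. The median width ratio was 0.371 with the letters and 0.493 without. They included regions near Dlk1, a Notch-family ligand gene, with percentiles of 19.1 in SOX2-ON and 84.6 in SOX2-OFF, with 82.2 in CEpiLC, and in Ror2, a receptor for WNT5A, with 46.8, 86.9 and 83.3. Neither motif went with the share of regions accessible in CEpiLC. It was 95.9% with the TCF/LEF letters (70 of 73) and 98.0% without (351 of 358) in strong SOX2-OFF regions, and 53.1% with a SOX match and 52.1% without in strong SOX2-ON regions.

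CTCF letters were least frequent in regions shifted to SOX2-ON. CTCF is the zinc-finger protein that bounds chromatin loops, and its motif was found in 11.2% of regions within 5 points of no shift, in 7.21% of those shifted to SOX2-OFF and in 3.05% (2.64 to 3.52) of those shifted to SOX2-ON. In the bin beyond 40 points to SOX2-ON it was 2.41%. In strong regions it was present in 2.40% for SOX2-ON and 9.28% for SOX2-OFF, against 8.32% of all strong regions. AP-1 letters (TGAGTCA or TGACTCA) were more frequent in regions shifted to SOX2-OFF. They were in 6.17% (5.67 to 6.70) of these, 4.94% (4.41 to 5.52) of those shifted to SOX2-ON and 4.82% of all. In strong regions the AP-1 shares were 5.80% and 4.80%, with overlapping intervals. The T-box letters AGGTGTGA were in 1.46% (1.22 to 1.74) for SOX2-OFF and 0.971% (0.750 to 1.26) for SOX2-ON. In percentage points the remaining motifs differed by less. CDX/HOX letters (TTTATTG or TTTATGG) were in 5.52% and 5.08%, and KLF letters (GGGCGTGG or GGGTGTGG) in 3.03% and 3.08% of regions shifted to SOX2-ON and SOX2-OFF. The FOXH1 shares were 1.80% and 1.83%, the OTX/GSC shares 6.21% and 5.78%, and the ESRRB/NR5A2 shares 0.613% and 0.394%.

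**Figure D4:**
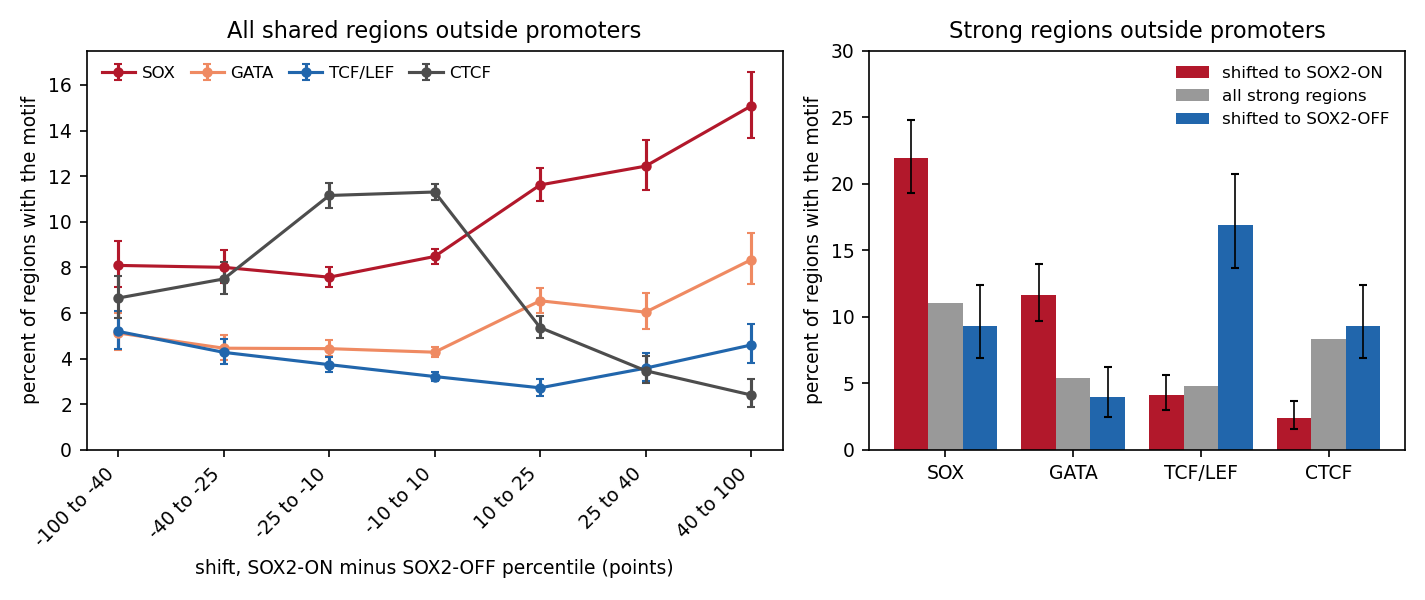
Left, percent of shared regions outside promoters with SOX, GATA, TCF/LEF or CTCF letters in the central 200 bases, by shift, with 95% Wilson intervals. Right, the same for strong regions, where SOX letters were in 21.9% of those shifted to SOX2-ON and TCF/LEF letters in 16.9% of those shifted to SOX2-OFF.

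To describe genes, each region was assigned to the nearest coding start within 100 kb, which placed 68711 regions. Of these, 6.81% were shifted to SOX2-ON and 10.3% to SOX2-OFF, with a median shift of −1.56 points, and the lists below are read beside those values. Most promoters of the listed genes changed little, and most of the shifted regions were distal. Over all shared promoter regions, 80.8% lay within 5 points. The counts below take the strongest promoter region of each gene and leave out weaker ones, such as the shifted one of Hoxd3. The strongest promoter region lay within 5 points at 11 of 13 naive pluripotency genes with a shared promoter region, 10 of 10 general pluripotency genes, 8 of 10 formative genes, 11 of 13 neural genes, 10 of 13 early streak genes, 10 of 14 caudal genes and 13 of 14 genes of the WNT list. Sox3, Cdx4 and Pgk1 are on chromosome X and were not part of the regions.

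Genes of naive pluripotency had more regions shifted to SOX2-ON than to SOX2-OFF. Of 119 regions near 14 genes, 18 (15.1%) were shifted to SOX2-ON and 4 (3.36%) to SOX2-OFF, with a median shift of 0.00913 points. Extending the assignment to gene bodies with 50 kb either side gave 22 and 9, and leaving out chromosomes 6 and 8 gave 12 and 3.

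Among them, a region 66911 bases downstream of Klf4, a zinc-finger reprogramming factor, had percentiles of 95.3 in SOX2-ON and 41.9 in SOX2-OFF, with 38.1 in CEpiLC, and covered 1052 against 318 bases. It holds the SOX and GATA matches shown above. The Klf4 promoter itself stood at 94.3 and 90.6. Near Tcl1, a coactivator of AKT in ES cells, regions shifted by 61.5 and 30.0 points. Prdm14, a repressor of differentiation genes, had 4 of its 11 regions shifted to SOX2-ON, by 58.1, 50.1, 28.5 and 28.2 points, and 3 of these 4 held a SOX match. Its promoter stood at 66.2 in SOX2-ON and 70.1 in SOX2-OFF.

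Some naive genes had regions shifted both ways. Esrrb, an orphan nuclear receptor gene, had regions at 49.1, 44.96 and −55.8 points, Nanog at 31.3 and −39.6, and Klf5 at 32.9, 29.4 and −33.9. For Nanog these 2 regions lay 15999 and 10935 bases upstream of the start, so neighbouring regions of a gene did not move together. Zfp42 (REX1) had 2 regions shifted to SOX2-ON, and Fgf4, Dppa3, Dppa5a and Tbx3 had 1 each. The region of Tbx3 was strong, with 95.9 in SOX2-ON and 67.7 in SOX2-OFF, and had no CEpiLC peak. Nr5a2 and Tfcp2l1 had no shifted region, and Klf2 had 1, to SOX2-OFF.

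The general pluripotency list had 3 regions of 58 (5.17%) shifted each way, against 6.81% to SOX2-ON and 10.3% to SOX2-OFF over all assigned regions. A region 2125 bases upstream of Mybl2, a cell cycle transcription factor gene, had percentiles of 82.3 in SOX2-ON and 10.7 in SOX2-OFF with no CEpiLC peak, and its SOX match is shown above. At Pou5f1 the promoter stood at 93.7 and 92.3, while a region 14874 bases upstream had 75.3, 16.9 and, in CEpiLC, 51.6. Regions at Sall4 went the other way, with one 63831 bases upstream at 15.9 in SOX2-ON and 74.3 in SOX2-OFF, with 89.8 in CEpiLC.

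Sox2 itself gave no shifted region. Its promoter region, chr3:34648778-34651348, had percentiles of 92.6 in SOX2-ON and 91.2 in SOX2-OFF, with 90.5 in CEpiLC, and 12 regions from 10419 bases upstream to 144874 bases downstream of the gene had shifts between −15.7 and 21.1 points. These values do not check the genotype, since the endogenous gene was inactivated by editing and its chromatin remains, and reads of the transgene cDNA, which both states carry, may align here.

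Formative and neural genes showed no one direction. The formative list had 6 of 73 regions (8.22%) shifted to SOX2-ON and 10 (13.7%) to SOX2-OFF. Among them Dnmt3a, a de novo DNA methyltransferase gene, had 2 and 4, and Etv5, an ETS factor of FGF signalling, 2 and 2. A region 26147 bases upstream of Otx2, a homeobox gene of the anterior epiblast, had 96.3 in SOX2-ON and 68.3 in SOX2-OFF, with 70.0 in CEpiLC. Foxd3 had 2 regions shifted to SOX2-OFF, by −43.2 and −38.8 points. The anterior and neural list had 8 of 101 (7.92%) shifted to SOX2-ON and 7 (6.93%) to SOX2-OFF. This turned to 2 and 5 without chromosomes 6 and 8, on which Fezf1 and Sox1 lie, and to 6 and 9 for gene bodies with 50 kb. A region in an exon near Six3, a forebrain homeobox gene, had 87.5 in SOX2-ON and 44.6 in SOX2-OFF, with 69.8 in CEpiLC. Pax7, a gene of the dorsal neural tube and muscle, had 3 regions shifted to SOX2-OFF, by −51.6, −42.0 and −27.2 points.

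Regions of early streak genes had 12 of 81 (14.8%) shifted to SOX2-OFF and 7 (8.64%) to SOX2-ON, with a median width ratio of 0.774. Eomes, the T-box gene of the streak and definitive endoderm, had 4 of its 10 regions shifted to SOX2-OFF, all upstream, by −64.2, −45.5, −43.2 and −36.2 points. The strongest, 9301 bases upstream, had 44.7 in SOX2-ON and 87.8 in SOX2-OFF, with 83.7 in CEpiLC, while the promoter stood at 91.7 and 90.8. A region 5865 bases from Gsc, a homeobox gene of the organizer, had 1.24, 70.1 and 51.8. Mixl1, a homeobox gene of mesendoderm, had a region at 27.3, 81.4 and 62.3. Foxa2, a forkhead gene of endoderm and node, had regions at −71.6, −63.4 and −50.6 points and another at 52.7, and the last held a SOX match. Cer1, a secreted antagonist of Nodal and WNT, had the only promoter of its list that shifted, at 75.4 in SOX2-ON and 48.3 in SOX2-OFF, with 47.5 in CEpiLC.

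Near genes of the caudal epiblast and paraxial mesoderm, 5 of 60 regions (8.33%) were shifted to SOX2-OFF and 0 to SOX2-ON. Over all assigned regions the shares were 10.3% and 6.81%, so this list had no excess of SOX2-OFF shifts. By fold enrichment 5 were shifted to SOX2-ON and 7 to SOX2-OFF, so the absence of SOX2-ON shifts rests on the ranking by −log10 p. Besides the Msgn1 promoter, a region 8597 bases from Fgf8, a ligand of the streak and tail bud, had 28.2 in SOX2-ON and 86.3 in SOX2-OFF, with 70.1 in CEpiLC. Around T (brachyury), the T-box gene of nascent mesoderm, regions had 16.3, 63.1 and 66.1 and 37.0, 75.1 and 75.2, and the promoter stood at 83.9 and 91.5. Promoters of Cdx1 and Evx1 were 7.04 and 8.37 points higher in SOX2-OFF and those of Cdx2, Tbx6 and Nkx1-2 differed by less than 2 points. Wnt3a, Cyp26a1, Dll1 and Rspo3 had no shifted region.

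The 81 regions near Hox genes had a median shift of −6.32 points, and 95.1% had a CEpiLC peak. Of them, 10 (12.3%) were shifted to SOX2-OFF and 0 to SOX2-ON, against 10.3% and 6.81% of all assigned regions. Ranking by fold enrichment gave 8 and 3. The promoter region of Hoxd3, chr2:74740184-74741086, had 7.45 in SOX2-ON and 66.9 in SOX2-OFF, with 77.4 in CEpiLC, although another promoter region of this gene stood at 86.9 and 85.3. Hoxb1, the most 3′ gene of its cluster and an early target of WNT and retinoic acid, had a promoter at 52.9, 84.4 and 88.4. The Hoxc6 promoter stood at 24.2, 55.6 and 80.5. Of 29 Hox genes with a shared promoter region, 19 had the strongest one within 5 points, where 80.8% of all shared promoter regions lay.

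Genes of the WNT response had regions shifted both ways, 16 of 146 to SOX2-ON and 18 to SOX2-OFF. Of the 16, 6 were near Tcf7l1, the repressive TCF of ES cells on chromosome 6, with shifts of 34.2 to 44.1 points, and without chromosomes 6 and 8 the counts were 9 and 16. Among regions shifted to SOX2-OFF, an intronic region of Tcf7l2 had 3.88 in SOX2-ON and 80.8 in SOX2-OFF, with 78.7 in CEpiLC. One in Lef1, the TCF/LEF factor of the streak, had 27.1, 86.6 and 82.9 and covered 214 against 1478 bases. Upstream of Axin2, a feedback inhibitor, a region had 24.3, 81.2 and 73.2. Znrf3, a ubiquitin ligase that removes WNT receptors, had 3 regions shifted to SOX2-OFF, of which the intronic one with TCF/LEF letters shown above had 6.62, 54.0 and 71.1. Upstream of Ccnd1, the cyclin D1 gene, the region shown above had 5.17, 54.9 and 51.0. Sp5, Lgr5, Nkd1 and Rnf43 also had regions shifted to SOX2-OFF.

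Several of these genes had regions of the opposite direction as well. Myc had 3 shifted to SOX2-ON and 1 to SOX2-OFF, and Dkk1, a secreted WNT inhibitor, had 1 of each, at 59.2 and −51.3 points. Tcf7l2 had 2 shifted to SOX2-ON, by 46.1 and 43.8 points, and Nkd1, Tcf7 and Lef1 had 1 each, by 43.97, 29.6 and 27.8 points. Axin2 had 1 shifted to SOX2-ON, by 36.5 points, and a second one shifted to SOX2-OFF by −25.7 points that turned to 1.14 points by fold enrichment.

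Lists of other cell types and of housekeeping genes were read in the same way. The ES cells were grown on feeder fibroblasts, from which they were separated by repeated plating before differentiation, and the fibroblast list had 14 of 55 regions (25.5%) shifted to SOX2-OFF and 3 to SOX2-ON, with a median shift of −7.27 points and a width ratio of 0.750. Of the 14, 5 were near Col1a2 on chromosome 6, as were all 3 shifted to SOX2-ON, and the counts were 9 and 0 without chromosomes 6 and 8. The strongest promoter region was within 5 points at 4 of 7 fibroblast genes (Col1a1, Col5a1, Prrx1 and Thy1), and those of Col1a2, Twist2 and Pdgfrb were at −5.91, −6.33 and −8.91 points. Dcn had no shared region. The part of feeder cells in any shift was not tested. In the trophoblast list 4 of 48 regions (8.33%) were shifted to SOX2-ON and 8 (16.7%) to SOX2-OFF. In the housekeeping list these were 1 of 40 (2.5%) and 3 (7.5%), all outside promoters. Over all assigned regions the shares were 6.81% and 10.3%.

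**Figure D5:**
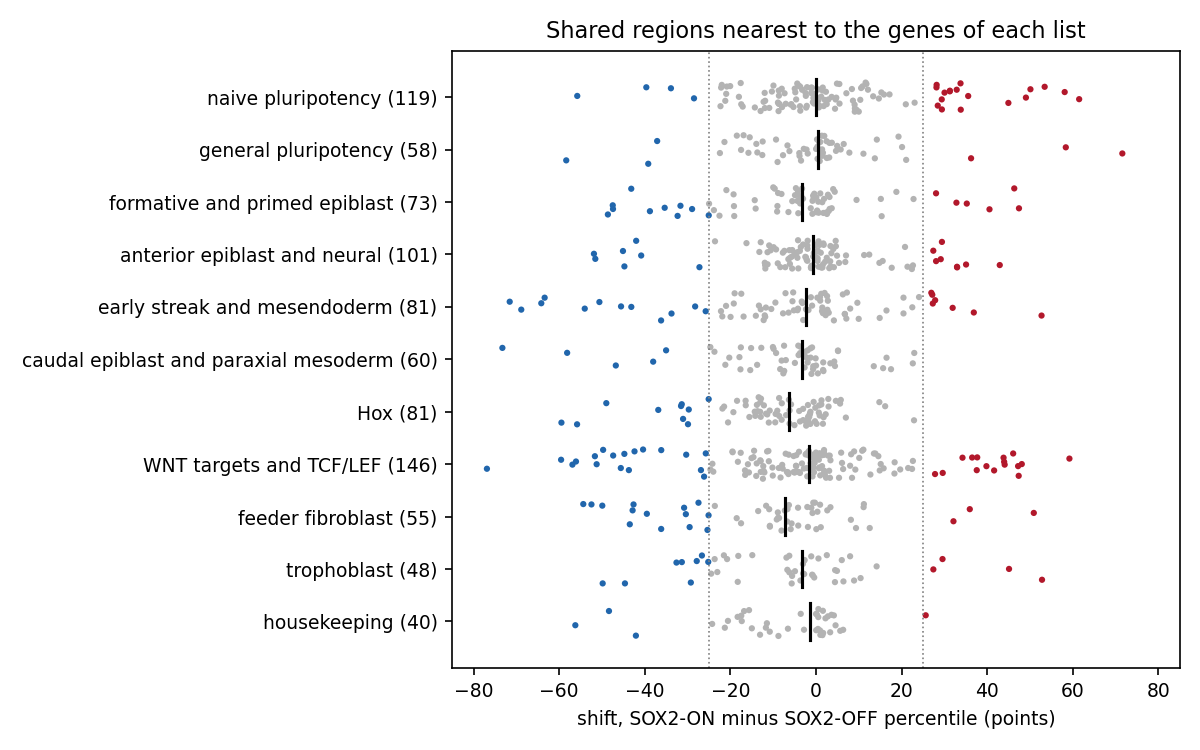
Shift of each shared region near the genes of each list (points), with the median as a black bar, dotted lines at 25 points either way and the number of regions in brackets. The naive pluripotency list has 18 regions beyond the SOX2-ON line and 4 beyond the SOX2-OFF line. The Hox and caudal lists have 10 (12.3%) and 5 (8.33%) beyond the SOX2-OFF line and 0 beyond the other. Over all assigned regions, 6.81% were shifted to SOX2-ON and 10.3% to SOX2-OFF.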

How the data were processed

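Chromatin accessibility was profiled by ATAC-seq in 3 samples, 1 each of SOX2-ON, SOX2-OFF and CEpiLC, grouped by the labelled genotype and doxycycline treatment. For each sample the authors ran the nf-core/atacseq pipeline, with trimming by Trim Galore, alignment to mm10 by BWA and broad peak calling by MACS2. The deposited fold enrichment of a peak is the ratio of its pileup to the local background of the library. The deposited −log10 p and −log10 q came from the caller, and the deposited score was not used. How cut sites were shifted is not stated in the sources used here, so peak edges are approximate, and read totals were not used.

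Peaks of chromosomes 1 to 19 were merged with bedtools 2.31.1 (touching peaks joined). Each region took its strongest peak in each list, ranked by −log10 p with ties broken by fold enrichment, as a percentile of that list. Shifted means at least 25 points, and strong means rank 1 to 20000. Genes, promoters (1 kb), exons and introns were those of protein-coding genes in GENCODE M21, and sequences came from the GRCm38 genome. Motif letters were sought on either strand within the central 200 bases of the overlap of the strongest peaks. Named regions were taken among those strong in either list, as the 10 outside promoters and the 5 promoters with the largest shift each way. Those outside promoters had to lie within 100 kb of a coding start, with 1 per gene. All shifted regions of 11 gene lists, with the promoters of their genes, were named too. So were the 5 regions with the largest width change each way among those strong in both lists. The regions, lists and motifs were chosen with earlier results of these data known. Ranking by fold enrichment or among shared regions, 40 points, a −log10 q of at least 2 or 5, a window of 500 bases, promoters of 2.5 kb, gene bodies with 50 kb, 1-peak regions, 50% overlap and the omission of chromosomes 6 and 8 (and 11) were the alternatives. The calculation was tested on copies of the SOX2-ON list with planted shifts and widths, and on made-up sequences with planted motifs. The copies were otherwise identical, so noise between libraries was not part of that check. Python 3.11.15, pandas 2.3.3, scipy 1.17.1 and matplotlib 3.10.9 were used. No test between groups was possible with 1 sample each. Shares carry 95% Wilson intervals for counting error only.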

Additional observations from a re-analysis of the deposited data

How the results depend on the processing

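No paired analysis was possible because SOX2-ON and SOX2-OFF had 1 sample each, and for the same reason no replicate could be left out. Of the main summary values recomputed under an alternative (of the motifs, only the differences for SOX, TCF/LEF and CTCF), 112 moved by less than their interval or by less than 1.5 times for counts and 75 by more. Of all motif values 89 were the same and 15 moved. No median shift or motif difference among the main values changed sign, but which direction held more shifted regions turned in places: over all regions when they were ranked among shared regions, in the neural list without chromosomes 6 and 8 (2 to SOX2-ON and 5 to SOX2-OFF) and with gene bodies and 50 kb (6 and 9), and from 3 each way in the general pluripotency list to the counts below. Among single regions 885 values were the same, 53 moved and 1 changed sign, that of the intronic Axin2 region at 108946847 on chromosome 11, which went to 1.14 points by fold enrichment. No cause was tested beyond what an alternative does by construction, such as using fewer peaks. Read depth is unknown, and it limits what could be called on the weak side of each shift.

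Ranking by fold enrichment gave a median shift of −1.50 points, a SOX2-ON share of shifted regions of 41.8%, 4.19% of SOX2-ON-shifted regions at promoters and 48.9% of them in CEpiLC, and 3 Hox and 5 caudal regions shifted to SOX2-ON and 5 housekeeping regions to SOX2-OFF. Ranking among shared regions gave a median shift of −0.54 points, 5836 regions shifted to SOX2-OFF and a SOX2-ON share of 53.6%. At 40 points, 2397 regions (479 strong) were shifted to SOX2-ON and 3018 (191 strong) to SOX2-OFF, a SOX2-ON share of 44.3%.

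With a −log10 q of at least 2, the median shift was −1.87 points, 3552 regions were shifted to SOX2-ON and 5760 (681 strong) to SOX2-OFF, a SOX2-ON share of 38.1%. The median width ratio was then 0.936, or 1.25 and 0.716 in regions shifted to SOX2-ON and SOX2-OFF, and 2856 regions were wider in SOX2-ON and 5469 in SOX2-OFF. With at least 5, 33284 regions were shared, the median shift was −0.10 points, 1945 were shifted to SOX2-ON and 2160 (869 strong) to SOX2-OFF, a SOX2-ON share of 47.4%. The width ratios were then 0.9501, 1.08 and 0.827, and 730 and 1762 regions were wider in SOX2-ON and SOX2-OFF.

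Without chromosomes 6 and 8 the median shift was −1.83 points, 3860 regions were shifted to SOX2-ON (a share of 39.3%) and 720 strong ones to SOX2-OFF, and 5.66% of regions shifted to SOX2-OFF were at promoters. The median width ratio was 0.928, or 1.46 in regions shifted to SOX2-ON, and 4335 and 7385 regions were wider in SOX2-ON and SOX2-OFF. Regions shifted to SOX2-ON were 9 in the WNT list, 2 in the neural list, 0 in the fibroblast list and 0 in the housekeeping list, and 9 fibroblast regions were shifted to SOX2-OFF. The SOX2-ON minus SOX2-OFF share of regions with a motif was 7.55 percentage points for SOX, −1.53 for TCF/LEF and −6.54 for CTCF. With chromosome 11 left out too, CEpiLC had a peak at 55.1% of regions shifted to SOX2-ON, 57.5% of the strong ones and 82.9% of those shifted to SOX2-OFF. The share over all shared regions was not computed under this setting.

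In a window of 500 bases that difference was 10.2 percentage points for SOX, −2.04 for TCF/LEF and −8.39 for CTCF, and in strong regions 22.6, −18.6 and −11.0. Gene bodies with 50 kb gave caudal counts of 2 to SOX2-ON and 13 to SOX2-OFF, general pluripotency counts of 11 and 7, housekeeping counts of 8 and 13, 9 naive pluripotency regions to SOX2-OFF and 4 trophoblast regions to SOX2-OFF. With promoters of 2.5 kb, 5.59% and 7.77% of regions shifted to SOX2-ON and SOX2-OFF were at promoters. The median width ratio was 0.925 in regions with 1 peak in each list. With strongest peaks overlapping by at least 50%, it was 1.36 in regions shifted to SOX2-ON and 0.591 in those shifted to SOX2-OFF. The repeat limit on motifs was chosen after seeing the data.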

Other observations

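Some genes outside the lists had several regions shifted in the same direction. They were chosen after their values were seen and carry no test, chromosomes 6 and 8 were left out, and a gene with many regions has more chances to appear. Only some of these genes are named. Over all assigned regions, 6.81% were shifted to SOX2-ON and 10.3% to SOX2-OFF. To SOX2-ON, Rbpj, the DNA-binding effector of Notch signalling, had 4 of 8 regions and 0 to SOX2-OFF, and Rtn4, a reticulon of the endoplasmic reticulum, had 4 of 7 and 0. Ndfip1, an adaptor of NEDD4-family ubiquitin ligases, had 6 of 15 and 0, and Tead1, a factor of the Hippo pathway, had 5 of 29 with 3 to SOX2-OFF. To SOX2-OFF, Amph and Slc1a7 each had 4 of 5, and Gng4, a G protein subunit gene, had 5 of 8, with a median shift of −28.2 points and a CEpiLC peak at all 8. Zfp36l2, an mRNA-destabilising zinc-finger gene, had 5 of 16, and Ywhaz, a 14-3-3 gene, had 6 of 18 with 1 to SOX2-ON. Vmn2r74 had 7 of 18 and 0 to SOX2-ON, and Gm4791 had 7 of 24 with 3 to SOX2-ON. Tspan5 had regions in both directions, 5 to SOX2-ON and 7 to SOX2-OFF among 29.

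Shifted regions had few neighbours that shifted with them. Of the regions outside promoters shifted to SOX2-ON whose nearest shared region within 10 kb was also outside promoters, 9.79% (8.82 to 10.8) had a neighbour shifted to SOX2-ON, against 8.51% over all such pairs. For SOX2-OFF the shares were 15.6% (14.6 to 16.6) and 13.0%.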
